A study of Arabidopsis thaliana with 8 samples.

Results

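The mitochondrial pyruvate dehydrogenase complex and the citric acid cycle are encoded in Arabidopsis by small families of nuclear genes, and 39 loci were listed here by enzyme: the subunits of the complex, the enzymes of the cycle, the NADP-dependent isocitrate dehydrogenases and NAD-malic enzyme. The loci were chosen by function, with earlier results of these data known. They were matched to the array through its probe annotation, using only probe sets paired with 1 gene. Of the 39 loci, 21 had such a probe set, among 13286 loci in all, and 20 were bright enough to be tested. The 8 samples were sections of wild-type roots of ecotype Columbia, with 2 samples from each of 4 longitudinal zones numbered 1 to 4. Seedlings had grown for 5 days on Murashige and Skoog medium and spent the last 3 hours on sulfur-deficient medium with 1% sucrose. All 8 samples had this treatment, so zone is the only factor, and the effect of low sulfur is not measured here. The labels name neither the zone at the root tip nor the origin of the 2 replicates, so p-values measure only how far these 8 samples spread, and that spread may be technical.

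Pyruvate dehydrogenase turns pyruvate from glycolysis into acetyl-CoA inside the mitochondrion. The cycle oxidises the acetyl group and passes electrons to the respiratory chain as NADH and, through succinate dehydrogenase, directly to ubiquinone. It also supplies 2-oxoglutarate, the carbon skeleton for ammonium assimilation, and other acids that growing root cells draw off.

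The measured loci covered the cycle unevenly. All 4 genes of 2-oxoglutarate dehydrogenase, all 3 of succinyl-CoA ligase and all 3 NADP-isocitrate dehydrogenases had a probe set, as did 4 of 8 pyruvate dehydrogenase genes, 3 of 5 NAD-isocitrate dehydrogenase genes and 4 of 5 succinate dehydrogenase genes. The 2 citrate synthase, 3 aconitase, 2 fumarase, 2 mitochondrial malate dehydrogenase and 2 NAD-malic enzyme genes were not analysed here, nor were the E1 alpha and E3 genes of pyruvate dehydrogenase. IDH-III, a regulatory subunit gene of NAD-isocitrate dehydrogenase, had signals from 0.669 to 18.4 and was left out of the tests with the lowest 40% of probe sets. SDH2-1 had a second probe set at 1.68 to 20 on all arrays, which was too dim to follow the gene, and its brighter one was used. Sequences and coordinates are not printed here.

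Signals are MAS5 intensities on a linear scale, and log2 differences, with their moderated standard errors (SE), come from limma fitted to all 13647 probe sets tested. A gene is called when its adjusted p over all of them is under 0.05 and the difference is at least 2-fold. Median signals of the arrays lay between 57.8 and 79.7 and, with 2 arrays in a zone, every value is known only as well as those 2 allow. In tissue sections, fewer cells of a type and less RNA per cell cannot be told apart.

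Between zones 3 and 1, 7 of the 20 tested genes were called higher in zone 3, and no tested gene was called lower. Over all probe sets tested, 18% were called higher in this comparison and 20% lower, so the total share of the members called, 35%, was close to the 38% called in either direction. The 7 were an E2 gene of pyruvate dehydrogenase, both catalytic NAD-isocitrate dehydrogenase genes, an E2 gene of 2-oxoglutarate dehydrogenase, the succinate dehydrogenase genes SDH1-2 and SDH2-1, and cICDH, the cytosolic NADP-isocitrate dehydrogenase gene. The median log2 difference of the 20 was 0.78, against -0.01 over all probe sets tested, with a range from -0.81 to 2.30. Members' signals tended to be high, and 13 of the 20 had a mean over 1000. Of those 13, 5 were called higher and 0 lower, where 24.8% and 21.6% of all probe sets of that brightness were. For 11 of the 20 both zone 3 arrays lay above both zone 1 arrays (55%, against 34.3%), and for 4 they lay below (20%, against 35.4%).

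**Figure D1:**
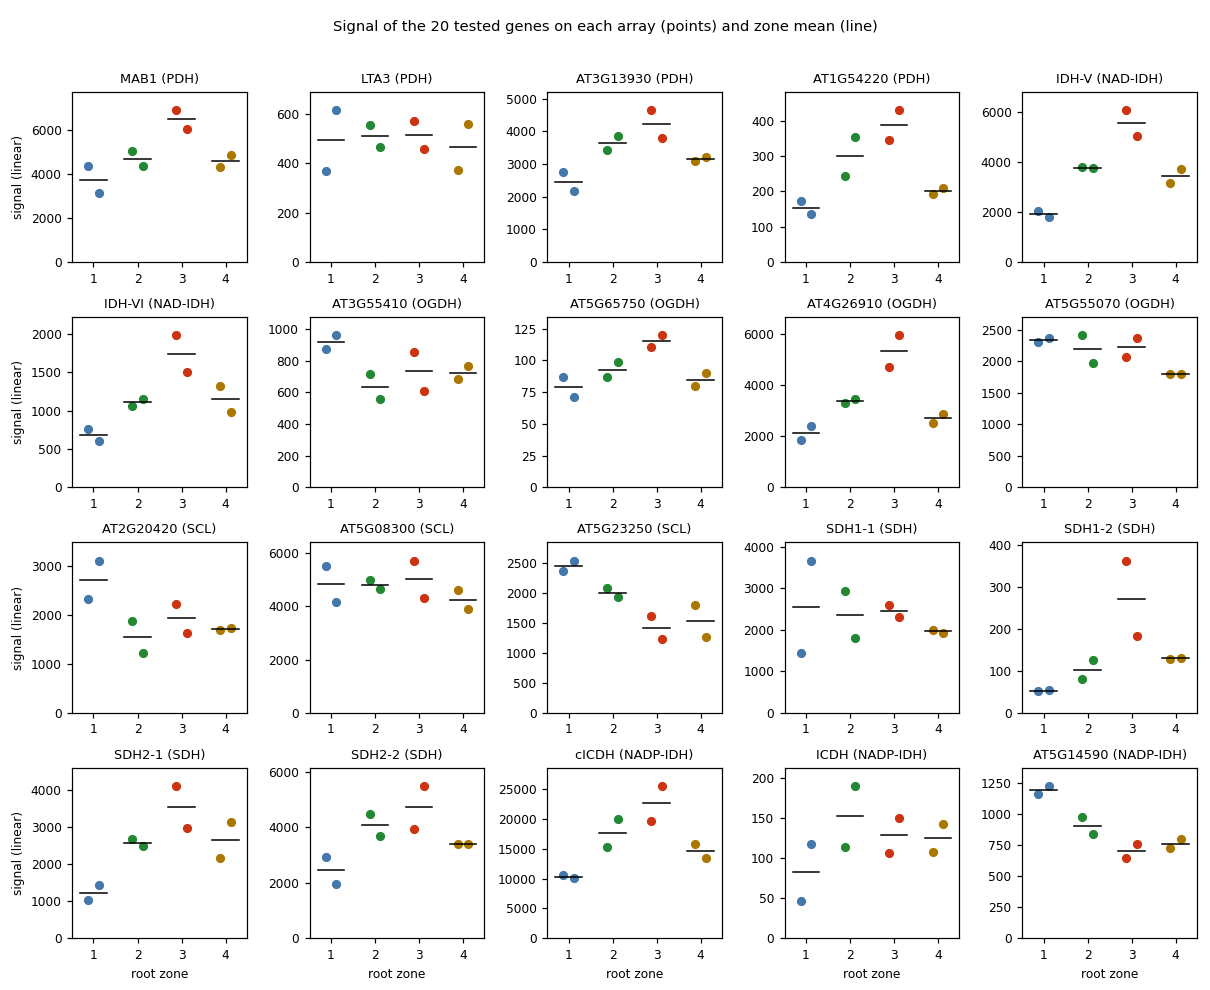
Linear MAS5 signal (vertical axis, from 0) of the 20 tested genes in zones 1 to 4 (horizontal axis); points are arrays and lines the mean of the 2 arrays. In 13 panels the mean is highest in zone 3 and in none is it highest in zone 4. PDH, pyruvate dehydrogenase; NAD-IDH and NADP-IDH, isocitrate dehydrogenases; OGDH, 2-oxoglutarate dehydrogenase; SCL, succinyl-CoA ligase; SDH, succinate dehydrogenase.

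In the pyruvate dehydrogenase complex, E1 decarboxylates pyruvate and E2 hands the acetyl group to coenzyme A. MAB1, the E1 beta gene, had signals of 4371 and 3141 in zone 1, 5039 and 4393 in zone 2, 6933 and 6069 in zone 3, and 4351 and 4891 in zone 4. Both zone 3 arrays lay above every other array, and zone 4 overlapped zones 1 and 2, which were apart. The log2 difference between zones 3 and 1 was 0.81 (SE 0.27, limma, adjusted p = 0.037), which is 1.75-fold and short of a call. The E2 gene AT1G54220 had 172 and 135 in zone 1, 242 and 355 in zone 2, 345 and 430.2 in zone 3, and 192 and 210.2 in zone 4. It was low in zones 1 and 4 and high in zones 2 and 3, which overlapped. Its difference between zones 3 and 1 was called (log2 1.34, SE 0.34, adjusted p = 0.011), but not without zone 3 replicate 2 (adjusted p = 0.056). A second E2 gene, AT3G13930, had 2745 and 2178 in zone 1, 3437 and 3856 in zone 2, 4652 and 3803 in zone 3, and 3074 and 3212 in zone 4. Zone 1 lay below all other zones, and zones 2 and 3 overlapped. Its log2 difference between zones 3 and 1 was 0.78 (SE 0.27, adjusted p = 0.04, not a 2-fold difference). The third E2 gene, LTA3, had overlapping values in all zones, between 369.5 and 618, and a log2 difference of 0.10 (SE 0.36).

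NAD-isocitrate dehydrogenase makes the first NADH of the cycle, and both genes of its catalytic subunit rose from zone 1 to zone 3. IDH-V had 2026 and 1795 in zone 1, 3791 and 3770.3 in zone 2, 6087 and 5055 in zone 3, and 3156 and 3711 in zone 4. The zone 1 arrays were the lowest and the zone 3 arrays the highest, with zones 2 and 4 apart from both and just apart from each other. The gene was 2.91-fold higher in zone 3 than in zone 1 (log2 difference 1.54, SE 0.26, adjusted p = 0.0016). In zone 2 it reached a log2 difference of 0.99 (adjusted p = 0.038), just short of 2-fold. IDH-VI ran in the same order at the ends, with 763 and 608 in zone 1, 1067 and 1148 in zone 2, 1985 and 1502 in zone 3, and 1320.2 and 987 in zone 4. Zones 2 and 4 overlapped. Its difference between zones 3 and 1 was 2.53-fold (log2 1.34, SE 0.31, adjusted p = 0.0069), and without zone 3 replicate 1 the adjusted p was 0.06.

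2-oxoglutarate dehydrogenase is built like pyruvate dehydrogenase, and 1 of its 4 genes was called. AT4G26910, an E2 gene, had 1861 and 2393 in zone 1, 3296 and 3451 in zone 2, 4717 and 5945 in zone 3, and 2524 and 2881 in zone 4. No pair of zones overlapped, in the order 1, 4, 2, 3. It was 2.51-fold higher in zone 3 than in zone 1 (log2 1.33, SE 0.28, adjusted p = 0.0042). The other E2 gene, AT5G55070, had 2309.9 and 2366 in zone 1 and 2073 and 2380.0 in zone 3, with both zone 4 arrays, 1794 and 1800.4, below all others. Its zone 3 difference was -0.07 (SE 0.27). Of the E1 genes, which decarboxylate 2-oxoglutarate, AT3G55410 ranged from 556 to 960.4 with its highest mean in zone 1 (log2 difference in zone 3 -0.34, SE 0.31). AT5G65750 ranged from 71.2 to 119.9 with both zone 3 arrays on top (0.55, SE 0.38). Neither E1 gene was called in any comparison.

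Succinyl-CoA ligase, which yields ATP by substrate-level phosphorylation, had no called gene. AT2G20420, the beta subunit gene, had 2319 and 3103 in zone 1, above the other 6 arrays, which ran from 1209.8 to 2210.2. The alpha subunit gene AT5G23250 had 2359 and 2537 in zone 1, 2073 and 1929.8 in zone 2, 1606 and 1221 in zone 3, and 1789.8 and 1270.3 in zone 4. Zone 1 lay above zone 2, and zone 2 above zones 3 and 4, which overlapped. Its log2 difference between zones 3 and 1 was -0.81 (SE 0.30, adjusted p = 0.052) and that of AT2G20420 was -0.50 (SE 0.32). The other alpha gene, AT5G08300, ranged from 3917 to 5725, with all zones overlapping except 2 and 4, which were just apart (0.05, SE 0.28).

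Succinate dehydrogenase belongs to both the cycle and the respiratory chain, where it is complex II. SDH1 is its flavoprotein and SDH2 its iron-sulfur subunit. SDH1-2 had 51.1 and 53.3 in zone 1, 78.9 and 125 in zone 2, 362 and 181 in zone 3, and 129 and 131 in zone 4. Both zone 3 arrays were the highest, although they were far apart, and both zone 1 arrays the lowest. Its 4.91-fold difference between zones 3 and 1 was the largest among the 20 genes (log2 2.30, SE 0.43, adjusted p = 0.0025). The zone 1 signals of this gene were dim, not far above the filter limit of 42.5. Over all alternatives its log2 difference ran from 1.78 to 2.79. SDH1-1 ranged from 1436 to 3661, and both extremes were zone 1 arrays. Its zones overlapped except 3 and 4, with both zone 4 arrays, 1996 and 1928, below both zone 3 arrays, 2595 and 2306. SDH2-1 had 1026 and 1432 in zone 1, 2674 and 2496 in zone 2, 4121 and 2979 in zone 3, and 2176 and 3149.9 in zone 4. The zone 1 arrays were apart from all others, and zone 4 overlapped zones 2 and 3. SDH2-1 was the only member called in more than 1 comparison, with log2 differences from zone 1 of 1.09 in zone 2 (SE 0.32, adjusted p = 0.0495), 1.53 in zone 3 (adjusted p = 0.0042) and 1.11 in zone 4 (adjusted p = 0.042). Leaving out any 1 array except zone 1 replicate 2 ended the zone 2 call, and its adjusted p ran from 0.039 to 0.25 over all alternatives. The zone 4 call was lost without zone 1 replicate 1, either zone 2 array or either zone 4 array (adjusted p from 0.026 to 0.29). With the replicate number as a block, both of these calls were lost. SDH2-2 had 2932 and 1956 in zone 1, below all 6 other arrays, which ran from 3381 to 5486. Its log2 difference in zone 3 was 0.96 (SE 0.30, adjusted p = 0.029), short of 2-fold.

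The NADP-isocitrate dehydrogenases make 2-oxoglutarate outside the NAD-linked step and supply NADPH. cICDH had 10546 and 10029 in zone 1, 15320.5 and 19955 in zone 2, 19701 and 25572 in zone 3, and 15789 and 13509 in zone 4. Zone 1 was apart from all others, zone 3 lay above zones 1 and 4, and zone 2 overlapped zones 3 and 4. The gene was 2.18-fold higher in zone 3 than in zone 1 (log2 1.13, SE 0.25, adjusted p = 0.0062). The call was lost with no filter on signal (adjusted p = 0.056) and without zone 3 replicate 2, where the difference of 0.94 was under 2-fold (adjusted p = 0.044). ICDH, whose product is peroxisomal, had 46.6 and 118 in zone 1 and overlapping values up to 189.7 elsewhere. AT5G14590, a gene for an organellar enzyme, went the other way, with 1166 and 1228 in zone 1, 975 and 839 in zone 2, 647 and 763 in zone 3, and 729 and 797 in zone 4. Zone 1 was the highest, then zone 2, with zones 3 and 4 overlapping, and the zone 3 difference was -0.77 (SE 0.29, adjusted p = 0.054).

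**Figure D2:**
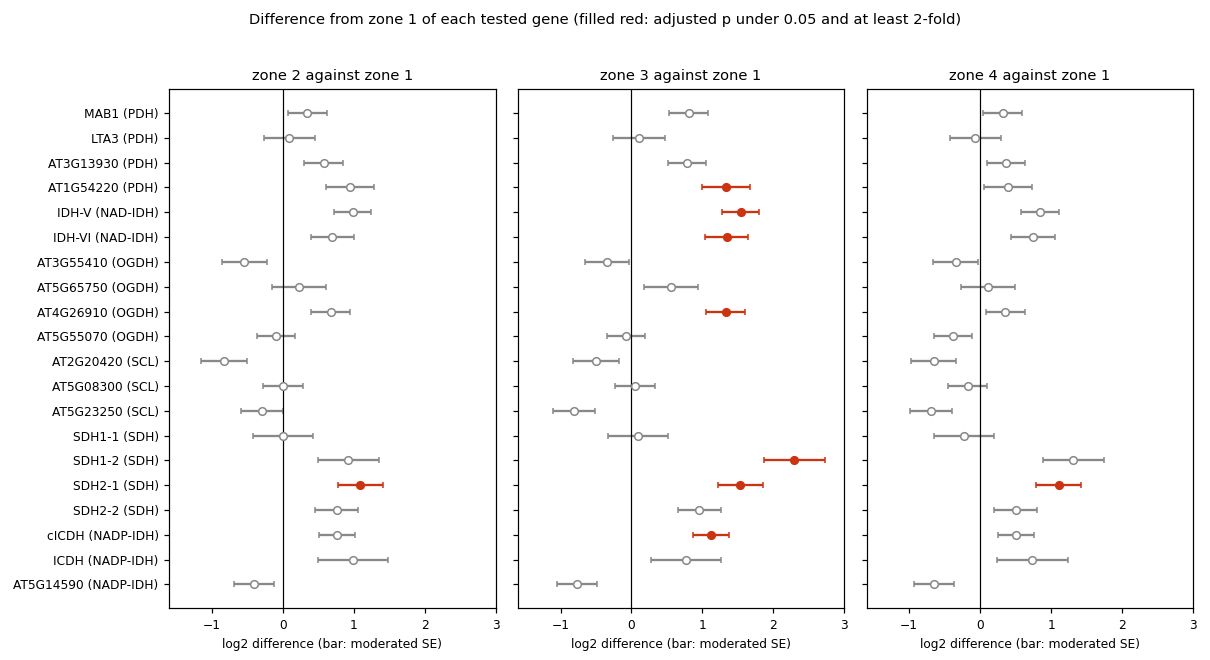
Log2 difference from zone 1 (horizontal axis) of each tested gene in zones 2, 3 and 4; bars are moderated SEs and filled red points are called. All 7 calls in zone 3 lie to the right of 0, and SDH2-1 is also called in zones 2 and 4. The 3 panels share the zone 1 arrays.

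By the moderated F-test over the 4 zones, 7 of the 20 genes differed, and these were the 7 named above. That is 35% of the members, where 26.9% of all probe sets passed. Of the 13 members with a mean over 1000, 5 passed (38.5%), where 39.5% of all probe sets of that brightness did. The adjusted p lay between 0.011 for IDH-V and 0.046 for AT1G54220. This count was not stable: leaving out 1 array at a time gave 0 to 5, with 0 without zone 3 replicate 1. It was 4 with the replicate number as a block and 2 when the prior variance was the same at all signals.

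Zone 3 held the highest mean of 13 of the 20 genes, or 65%, where it held the highest mean of 28% of all probe sets tested. Among genes with a mean over 1000 the shares were 9 of 13 members, or 69.2%, and 35.2%. Zone 1 was highest for 6 genes (30%, against 39%), among them 2 of 3 succinyl-CoA ligase genes, zone 2 for ICDH alone (5%, against 14.3%) and zone 4 for none, against 18.7%. The lowest mean fell in zone 1 for 12 genes (60%, against 36.9% of all probe sets).

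In zone 2 against zone 1, 1 of 20 genes was called higher, SDH2-1, and none lower, where 7.28% of all probe sets were called higher and 4.78% lower. The median of the members was 0.46. Both zone 2 arrays lay above both zone 1 arrays for 10 genes (50%, against 29.9%) and below them for 4 (20%, against 29.5%). In zone 4 against zone 1, SDH2-1 was again the 1 gene called higher, where 10.5% of all probe sets were, and 0 were lower, where 3.88% were. The median was 0.33. Both zone 4 arrays lay above both zone 1 arrays for 9 genes (45%, against 31.5%) and below for 5 (25%, against 30%). All comparisons with zone 1 share its 2 arrays.

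In zone 3 against zone 2 no member was called, and limma called 0% of all probe sets, although 2 members and 18.1% of all probe sets had an unadjusted p under 0.05. The median of the members was 0.26, against -0.05 over all. Both zone 3 arrays lay above both zone 2 arrays for 7 genes (35%, against 23.6%) and below for 2 (10%, against 27.5%). In zone 4 against zone 3 no member was called either, where 1.85% of all probe sets were called higher and 0.264% lower. The unadjusted p was under 0.05 for 5 members (25%, against 18.7%). Here the median was -0.42, against 0.10 over all. For 12 of the 20 genes both zone 4 arrays lay below both zone 3 arrays, 60% against 22.8% of all probe sets, and for none did they lie above, against 30.9%. Those 12 included 6 of the 7 genes called between zones 3 and 1, all but SDH2-1. The comparisons with zone 3 share its arrays, so these counts are not independent of one another. Counts of zones apart, here and above, also depend on the spread between the 2 arrays of a zone. The median pooled SD of log2 signal within a zone was 0.23 over the members and 0.41 over all probe sets tested.

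Genes for the same subunit or enzyme were also set against each other, in a test added after seeing the values. The log2 ratio of 2 genes was taken within each array, which removes any scaling common to the array, and tested over the 4 zones with an exact permutation test of the 8 arrays. All 12 pairs were compared. Each p is for any difference among the 4 zones, while the shifts given are zone 3 minus zone 1. The ratio of AT5G08300 to AT5G23250, the alpha genes of succinyl-CoA ligase, was higher by 0.85 in zone 3 than in zone 1 (log2 scale, exact permutation p = 0.0095, the smallest possible, adjusted p = 0.11). The ratio of AT4G26910 to AT5G55070 was higher by 1.40, with the 2 zone 3 arrays close together (exact permutation p = 0.029, adjusted p = 0.15). For cICDH over AT5G14590 the shift was 1.89 (exact permutation p = 0.038, adjusted p = 0.15). SDH1-1 over SDH1-2 shifted by -2.20, the largest of the 12, but its arrays spread widely within zones 1, 2 and 3 (exact permutation p = 0.14). IDH-V over IDH-VI shifted by 0.20 and SDH2-1 over SDH2-2 by 0.57 (exact permutation p = 0.67 and 0.71). The other 6 pairs had exact permutation p from 0.13 to 0.67. No pair passed after adjustment, and 1 pair alone could not have done so in this design. A p that misses the threshold does not show that the genes of a pair moved alike.

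**Figure D3:**
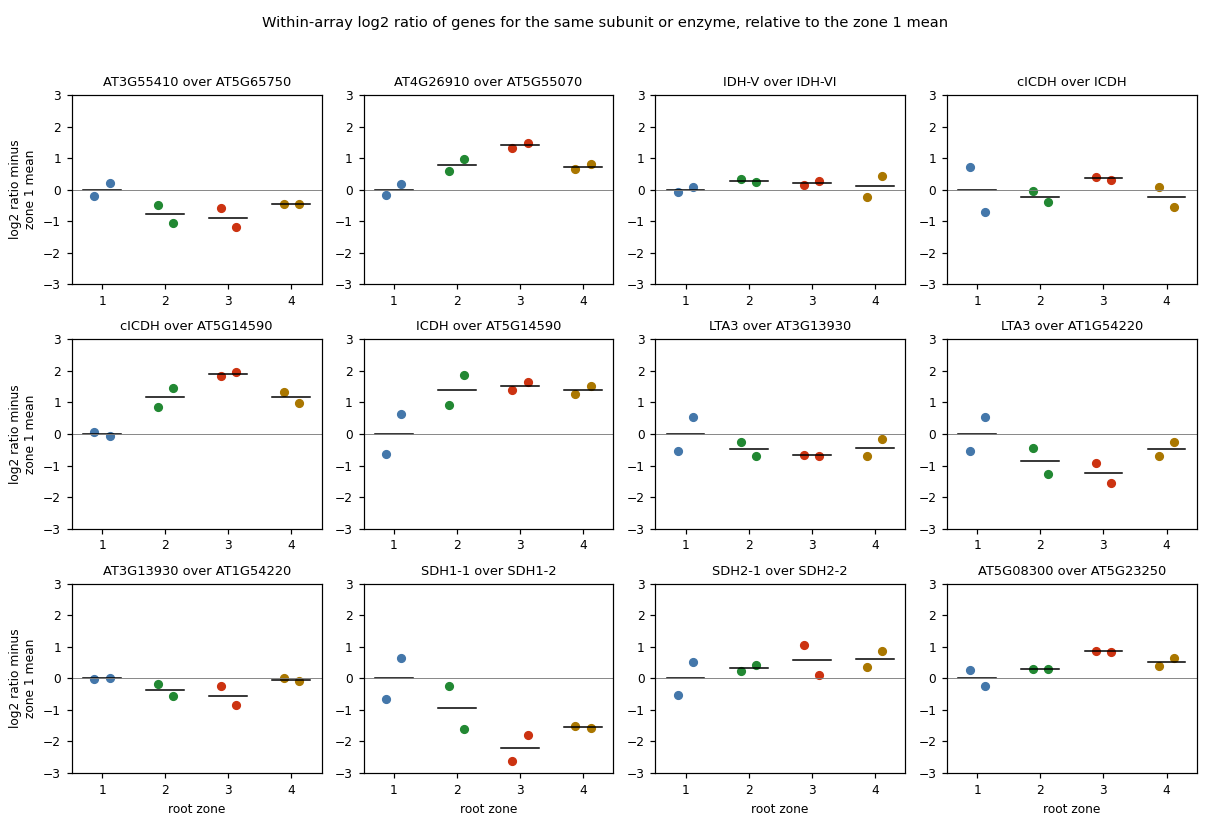
Log2 ratio of 2 genes within an array, minus its mean in zone 1 (vertical axis), in zones 1 to 4 for the 12 pairs; points are arrays and lines zone means. AT4G26910 over AT5G55070, AT5G08300 over AT5G23250 and cICDH over AT5G14590 have their highest values in zone 3, at 1.40, 0.85 and 1.89.

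Neighbouring steps were followed in 5 lists with measured genes. In the list of respiratory complexes and alternative electron transfer, 24 genes were tested, and against zone 1 zone 3 had 5 called higher and 1 called lower (list median 0.60). Over all probe sets tested 18% were called higher and 20% lower, so the share called higher in this list was near that of all probe sets. AT5G11770 and FRO1, complex I subunit genes, had log2 differences of 1.45 (adjusted p = 0.0052) and 1.14 (adjusted p = 0.0091). NDB2, an external alternative NAD(P)H dehydrogenase gene, had 267 and 491 in zone 1 and 2143 and 1082 in zone 3 (log2 2.07, SE 0.43, adjusted p = 0.0044). The cytochrome c gene CYTC-2 had 1.46. Of the genes for subunit 5c of cytochrome c oxidase, AT3G62400 was higher (1.02, adjusted p = 0.023) and AT5G61310 lower. AT5G61310 had 1746 and 1369 in zone 1, 889 and 984 in zone 2, 279.7 and 479 in zone 3, and 762 and 705 in zone 4 (zone 3 against zone 1, log2 -2.08, SE 0.34, adjusted p = 0.0012), so zone 3 was its lowest zone. AT5G11770 was also called in zone 2 against zone 1 (1.56, adjusted p = 0.015). Leaving out 1 array ended the zone 3 call of FRO1 (adjusted p = 0.051 without zone 3 replicate 2), CYTC-2 (0.093 without zone 1 replicate 1, 0.1 without zone 3 replicate 1) and AT3G62400 (0.1 without zone 1 replicate 2, 0.13 without zone 3 replicate 2). It ended the zone 2 call of AT5G11770 without zone 1 replicate 1 (adjusted p = 0.0503) or zone 2 replicate 2 (0.17), and never the zone 3 calls of AT5G11770, NDB2 and AT5G61310.

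Glycolysis and fermentation genes went both ways. Of 12 tested, 3 were higher and 1 lower in zone 3 than in zone 1, and the list median was 0.03, beside the 18% of all probe sets called higher and the 20% called lower. Those higher were TPI, for triose phosphate isomerase (log2 1.07, adjusted p = 0.01), the pyruvate kinase family gene AT5G56350 (1.24, adjusted p = 0.027) and the lactate dehydrogenase gene AT4G17260 (1.65, adjusted p = 0.0071). AT1G20950, an alpha subunit gene of the pyrophosphate-dependent phosphofructokinase, was lower in zone 3 (-1.08, adjusted p = 0.026) and in zone 4 (-1.41, adjusted p = 0.021). Each of these calls was lost without at least 1 array. This held for TPI without zone 1 replicate 1 or zone 3 replicate 2 (adjusted p = 0.053 and 0.058), for AT5G56350 without zone 1 replicate 1 or zone 3 replicate 1 (0.094 and 0.18), for AT4G17260 without zone 3 replicate 1 (0.055), and for AT1G20950 in zone 3 without zone 1 replicate 2 or either zone 3 array (0.084 to 0.1). Its zone 4 call was lost without zone 1 replicate 2 or either zone 4 array (0.058 to 0.17).

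Of 4 genes for entry and exit of cycle carbon, 1 was higher and 1 lower in zone 3 than in zone 1. In this comparison, used for every list in this paragraph, 18% of all probe sets tested were called higher and 20% lower. ICL, for isocitrate lyase of the glyoxylate cycle, had 35.5 and 37.4 in zone 1, 86.7 and 151 in zone 2, 81.7 and 126 in zone 3, and 40.5 and 40.8 in zone 4 (zone 3 against zone 1, log2 1.47, SE 0.50, adjusted p = 0.038). Zones 2 and 3 lay above zones 1 and 4. The call on ICL was kept in 1 of 8 fits that left out an array, the one without zone 2 replicate 1, and the adjusted p reached 0.17 without zone 3 replicate 2. AT4G14695, of the mitochondrial pyruvate carrier family, was lower in zone 3, with 242 and 293 in zone 1 and 71.7 and 126 in zone 3 (-1.49, SE 0.36, adjusted p = 0.0089, and 0.073 without zone 3 replicate 1). Its relative AT4G22310 had 1291 and 1414 in zone 1 and 2086 and 2016 in zone 3 (0.60, SE 0.28, not called). Of 5 tested malate and citrate enzymes outside mitochondria, 1 was higher, the ATP-citrate lyase gene ACLA-3 (1.33, adjusted p = 0.019, and 0.087 without zone 1 replicate 1 or 0.11 without zone 3 replicate 1). Neither of the 2 plastid pyruvate dehydrogenase genes tested, AT2G34590 and AT4G16155, was called, with a median of -0.33.

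**Figure D4:**
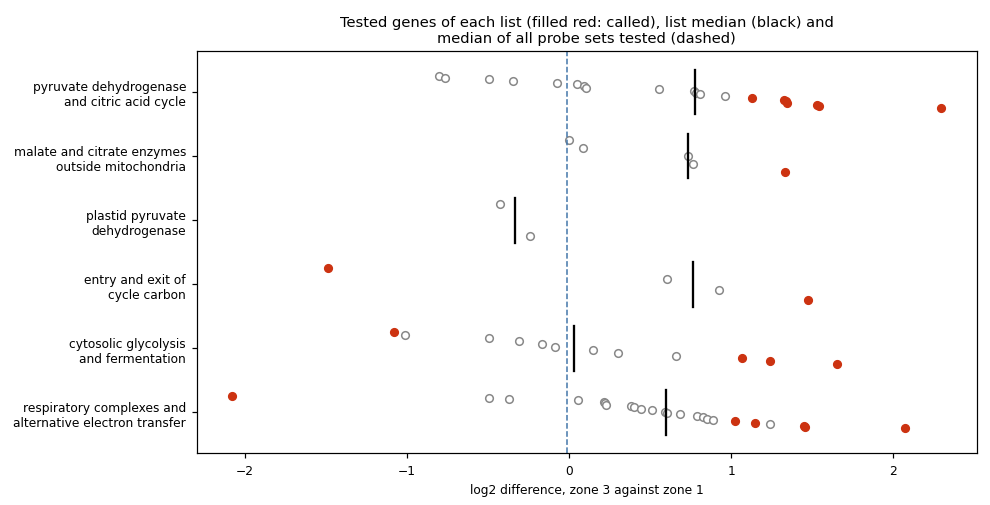
Log2 difference between zones 3 and 1 (horizontal axis) of each tested gene by list; filled red points are called, black bars are list medians and the dashed line is the median of all probe sets tested. The pyruvate dehydrogenase and citric acid cycle genes have a median of 0.78 with 7 calls, all to the right.

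Markers of cell types moved along the same zones. Of 8 meristem and division markers, 4 had a probe set, BBM, AUR1, AUR2 and AUR3. All 4 were called lower in zone 3 than in zone 1, as were 20% of all probe sets tested. The call of AUR3 was lost with a robust prior variance (adjusted p = 0.057), without either zone 1 array (0.086 and 0.06) and without zone 3 replicate 1, where its log2 difference was -1.22 in place of -3.24 (adjusted p = 0.063). Their summed signal was 1603 to 3421 in zone 1, 865 to 921 in zone 2, 184 to 478 in zone 3 and 1445 to 1865 in zone 4. Zone 3 had the lowest sum and the highest mean of 13 of the 20 tested members. Of 5 root hair markers, 2 had a probe set, the expansin genes EXPA7 and EXPA18. Both were called higher in zones 3 and 4 than in zone 1, as were 18% (zone 3) and 10.5% (zone 4) of all probe sets. The zone 3 call of EXPA18 was lost without zone 1 replicate 2 (adjusted p = 0.091) or zone 3 replicate 1 (0.095), and the zone 4 calls of EXPA7 (0.06) and EXPA18 (0.11) without zone 4 replicate 2. Their sum was 8.5 to 44.3 in zone 1, 52.6 to 101 in zone 2, 218 to 359.7 in zone 3 and 317 to 1886 in zone 4. No marker was at 0, but this does not show that each was detected. Some signals lay under the 40th percentile of their array, which was 27.1 to 47.6. Among these were BBM in zone 2 (7.6 and 8.8) and zone 3 (1.6 and 10.8), and AUR3 on zone 3 replicate 1 (5.9). In zone 1 EXPA7 (17.4 and 4.9) and EXPA18 (26.9 and 3.6) did so too. LBD16 and LBD29, markers of lateral root primordia, were dim, at 1.34 to 80.7, and were not tested. Markers of root cap, endodermis, xylem, phloem and green tissue were not analysed here. The ratio of 3' to 5' signal of the GAPDH control transcript is a sign of RNA or amplification quality. For replicates 1 and 2 it was 64.3 and 13.2 in zone 1 and 18.5 and 32.2 in zone 2. In zone 3 it was 14.8 and 26, and in zone 4 29.5 and 17.7. Zone 1 replicate 1 thus had the highest ratio. The part of cell makeup and of this ratio in the results was not tested.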

How the data were processed

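Total RNA went through two-cycle amplification before hybridisation to Affymetrix arrays, per the labels. What was deposited are linear intensity values, 1 signal per probe set and array, computed by the authors with MAS5, per the submitters' processing notes. The trimmed mean was 250.0 on all 8 arrays, so the arrays share a scale. The MAS5 version and the chip definition were not given in the sources used here.

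Controls and the dimmest 40% of the other probe sets (mean signal 42.5 or less) were left out, leaving 13647. Log2 signals without an offset were fitted with limma 3.58.1 in R 4.3.3, 1 mean per zone, with eBayes following the mean signal (4 residual and 6.5 prior degrees of freedom) and Benjamini-Hochberg adjustment over all 13647. Folds are 2 to the power of the log2 difference. The fit was also run on simulated arrays with changes in zone 4 only. That run checks the code and does not bear on the calls above. A locus with several probe sets took the one with the highest mean. Every member with a probe set is named, and of each other list the 4 genes with the smallest F-test p (all where it has 4 or fewer) may be named, with any called gene. The members and lists were chosen with earlier results of these data known, and the test of gene pairs was added after seeing the values. Symbols come from the gene table of assembly TAIR10.1. Alternatives were quantile normalization, centring on array medians, no filter or one at 60%, signals raised to at least the 40th percentile of their array, an offset of 32, other prior variances, a replicate block, no minimum fold, the dimmer probe set and leaving out each array. Python 3.11.15, pandas 2.3.3, numpy 2.4.6 and matplotlib 3.10.9 were also used.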

Additional observations from a re-analysis of the deposited data

How the results depend on the processing

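Between zones 3 and 1 the number of members called was within 1.5 times of 7 in every setting run, from 5 to 9 when 1 array was left out (5 without zone 3 replicate 2), and all called members were higher. The F-test count of 7 became 2 with a prior variance without trend, 4 with a replicate block, and 0 to 5 when 1 array was left out. The counts of 1 in zone 2 and in zone 4 against zone 1 rest on SDH2-1. Its dimmer probe set fell under the filter and was not tested. With the dimmer probe set SDH2-1 therefore drops out of the count, so the 0 listed for that setting was fixed in advance. In zone 2 the count was 0 with no filter, without trend, with quantile normalization, with the replicate block or with the dimmer probe set, 2 with arrays centred on their medians or no minimum fold, and 0 to 1 with 1 array left out. In zone 4 it was 0 with arrays centred, no filter, no trend, the replicate block or the dimmer probe set, 2 with quantile normalization, and 0 to 2 with 1 array left out. The counts of 0 between zones 3 and 2 and between zones 4 and 3 stayed 0 in every setting.

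Among named calls between zones 3 and 1, those of cICDH, TPI and ICL were lost with no filter, that of ICL also with the offset of 32, those of AT5G56350, AT1G20950 and AT3G62400 without trend, that of AT1G20950 also with arrays centred that of AT3G62400 with quantile normalization and that of AUR3 with a robust prior variance; the causes were not tested. Centring arrays on their medians moved the median of all probe sets between zones 3 and 1 from -0.01 to 0.13. Of the differences between zones 3 and 1, uncalled ones changed sign for AT5G55070 (0.065) with arrays centred and AT5G08300 (-0.0027) with quantile normalization. With 1 array left out they ran from -0.27 to 0.47 for LTA3, from -0.17 to 0.026 for AT5G55070, from -0.16 to 0.25 for AT5G08300 and from -0.58 to 0.77 for SDH1-1. The shift of cICDH over ICDH, 0.36, ran from -0.35 (without zone 1 replicate 2) to 1.06 (without zone 1 replicate 1). Over all comparisons, 45 of 1690 recomputed member differences changed sign, none of them called. Many of the 1690 could not change. Another filter, another prior variance or the block leaves a difference as it was, as does leaving out an array of a zone outside the comparison. The share of 45 in 1690 therefore makes the signs look more stable than they were. Deviations of same-numbered samples of different zones were correlated at r from -0.19 to 0.04 (6 pairs of zones, across probe sets). With 2 arrays in a zone this cannot show whether same-numbered samples were collected together, and the labels do not say. The block is therefore given as an alternative.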
